A study of Mus musculus with 24 samples.

Results

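Venus-negative epithelial cells of the jejunum were compared directly with Venus-negative epithelial cells of the ileum, which asked how the cells sorted as negative for the guanylin reporter differ between the middle and the end of the small intestine. The members were the libraries whose labels give the variation GFP negative and the tissue Jejunum (3 libraries) or Ileum (3 libraries), 6 of the 24 libraries of the series. The 3 libraries of a region came from 3 different Guca2a-Venus mice on standard chow. The mice carried, in both groups, a bacterial artificial chromosome in which the yellow fluorescent protein Venus took the place of the *Guca2a* coding sequence, so Venus marks cells in which the guanylin promoter is active. The line descends from 1 founder and was crossed into C57Bl6J to a varying degree, and the age of the mice is not given in the sources used here. Single cells were made from a stretch of 3 cm in the middle of the small intestine and from its last 3 cm, and dead cells (DAPI-positive), debris (Draq5-negative) and immune cells (CD45-positive) were excluded before cells without fluorescence were collected. A Venus-negative library is therefore a mixture of the remaining epithelial cell types, and fewer cells of a type cannot be told apart from less RNA per cell in such bulk samples. The paper estimated a larger share of Venus-positive cells in the epithelium of the jejunum than in that of the ileum. The share of cells absent from the Venus-negative libraries thus differed between the regions.

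The jejunum is the main site where dietary fat, sugars, peptides and many vitamins are taken up, by enterocytes that break down the last sugar and peptide bonds on their brush border, pack fat into chylomicrons and pass sugars and amino acids to the blood. The ileum takes up what remains and, in its last part, recovers bile acids through a dedicated importer and a cytosolic carrier. Transcription factors of the GATA, HNF4, CDX and Hox families are known for setting such positional programmes along the gut. Enteroendocrine cells, which sense the lumen and secrete hormones, also change their hormones along this axis.

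The 6 libraries held 15672116 to 23063124 reads on genes, so that 3 counts, taken as the floor of detection, stood for 0.106 to 0.228 CPM (counts scaled by TMM, per megaread). Intervals and floors cover counting error only, because such reads carry no molecular identifiers and several can come from 1 molecule. Mitochondrial genes took 78.8, 76.9 and 61.2% of the counts in the jejunum and 64.7, 70.9 and 65.6% in the ileum. TMM scaling factors were 0.703, 0.773 and 1.01 in the jejunum and 1.55, 1.23 and 1.07 in the ileum, without overlap. Scaling by library size alone in place of TMM moved the median log2 fold change (ileum over jejunum) of all genes from -0.01 to 0.61, and each difference reported here is relative to the TMM scale. The epithelial marker *Epcam* had 340, 340 and 531 CPM in the jejunum and 376, 399 and 432 CPM in the ileum. *Vil1*, the microvillus protein villin, had 150, 263 and 169 CPM in the jejunum and 129, 168 and 113 CPM in the ileum. Neither passed the test (log2 fold change of -0.01 ± 0.30 SE, adjusted p = 1.0, and log2 fold change of -0.51 ± 0.29 SE, adjusted p = 0.59), and no gene of the 10 epithelial markers was called (edgeR, with 2 toward the jejunum and 1 toward the ileum at an unadjusted p under 0.05, and none by DESeq2). *Guca2a*, the gene behind the reporter, stood at 24.3, 21.5 and 27.7 CPM in the jejunum and 23.5, 22.5 and 32.6 CPM in the ileum and did not pass the test (log2 fold change of 0.10 ± 0.32 SE, adjusted p = 0.97). Its means in Venus-positive cells were 153 CPM in the jejunum and 191 CPM in the ileum.

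Expression differed in 317 of the 15044 genes tested (2.11%) at an adjusted p under 0.05. Every adjusted p below comes from the quasi-likelihood test of edgeR, adjusted over all genes by the method of Benjamini and Hochberg. Of these, 256 genes (1.70% of those tested) were higher in the jejunum and 61 (0.405%) were higher in the ileum. With scaling by library size alone, 115 genes were higher in the jejunum and 559 in the ileum, so the balance of the directions depends on the scaling, while 176 of the 317 genes were called with the same direction on both scales. Of the 317 called genes, 313 differed by at least 1 log2 unit. At least 2 log2 units were reached by 138 genes higher in the jejunum and 48 higher in the ileum. With 3 libraries per group the test tends to call large differences, so these sizes describe the called genes alone. Values of the 3 jejunum libraries and the 3 ileum libraries did not overlap for 313 of the called genes. A call with 3 libraries per group favours such a separation, and the share over all genes tested is not given here. Called genes higher in the ileum had a median log2 fold change of 3.93 and those higher in the jejunum one of -2.13. Without ileum replicate 1 the number of called genes was 188, and 184 of these were among the 317.

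**Figure D1:**
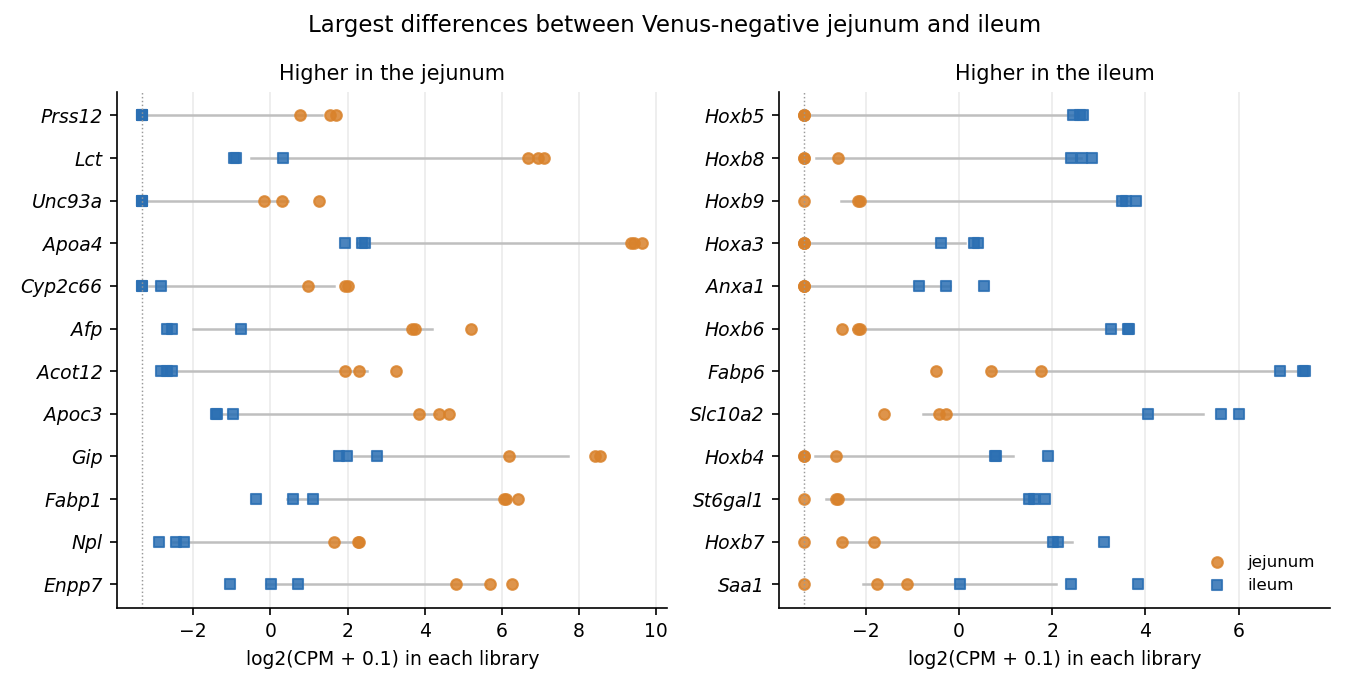
Level of each gene in each library as log2(CPM + 0.1), with jejunum libraries as orange circles, ileum libraries as blue squares, a grey line between the group means and a dotted line at a count of 0. The panels hold the 12 genes with the largest log2 fold change toward the jejunum (left) and toward the ileum (right) among called protein-coding genes whose groups do not overlap and that have at least 10 counts in each library of the higher group, so the circles and squares of a row stand apart by that choice.

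Lactase was among the genes with the smallest p. *Lct*, which splits the milk sugar lactose on the brush border, had 103, 122 and 136 CPM in the jejunum and 1.15, 0.423 and 0.443 CPM in the ileum. All jejunum libraries lay above all ileum libraries, with a log2 fold change of -7.45 ± 0.57 SE, adjusted p = 1.0e-09. The level in Venus-negative cells of the duodenum was 46.8 CPM and that in the colon 1.62 CPM, given as means of 3 libraries without a test. *Fabp1*, the fatty acid binding protein that carries absorbed fatty acids through the cytosol, had 68.6, 66.1 and 84.7 CPM in the jejunum and 1.40, 0.670 and 2.05 CPM in the ileum. The groups were again far apart (log2 fold change of -5.76 ± 0.45 SE, adjusted p = 1.0e-09). In the opposite direction, *Slc10a2*, the apical importer of bile acids, had 0.227, 0.643 and 0.725 CPM in the jejunum and 16.5, 49.5 and 64.7 CPM in the ileum. *Fabp6*, the cytosolic bile acid carrier, had 1.52, 3.28 and 0.604 CPM in the jejunum and 119, 167 and 171 CPM in the ileum. Every ileum library exceeded every jejunum library for both genes. The log2 fold change was 6.30 ± 0.63 SE for *Slc10a2* (adjusted p = 6.4e-08) and 6.40 ± 0.73 SE for *Fabp6* (adjusted p = 6.5e-07).

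Bases before the start of these 4 genes and of the hormone gene *Gip*, described below, are shown because their regional differences were among the largest and their promoters hold letters that regional transcription factors are known to bind. Sequences are from RefSeq on GRCm38.p6, up to 250 bases long, 5′ to 3′ on the strand of the gene, and end at the base before the start. Capitals mark 3 kinds of letters, each searched on both strands. The letters of GATA factors are AGATAA, with TGATAA as the accepted variant. The letters of the factor HNF1 are GTTAAT. Those of CDX factors are TTTATG, and a match on the opposite strand shows as the reverse complement. The stretches lie at chr1:128328319-128328568 (minus strand, *Lct*), chr6:71199629-71199826 (plus strand, *Fabp1*), chr11:96024295-96024544 (plus strand, *Gip*), chr11:43601563-43601812 (minus strand, *Fabp6*) and chr8:5105352-5105537 (minus strand, *Slc10a2*).
Lct: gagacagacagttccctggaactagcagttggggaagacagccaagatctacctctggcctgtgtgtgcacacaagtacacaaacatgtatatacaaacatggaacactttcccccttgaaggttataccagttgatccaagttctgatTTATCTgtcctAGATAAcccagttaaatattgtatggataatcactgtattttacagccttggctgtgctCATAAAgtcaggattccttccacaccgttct
Fabp1: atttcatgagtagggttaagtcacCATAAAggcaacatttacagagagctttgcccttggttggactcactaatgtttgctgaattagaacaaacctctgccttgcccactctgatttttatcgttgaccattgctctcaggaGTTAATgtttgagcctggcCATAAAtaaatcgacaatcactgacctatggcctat
Gip: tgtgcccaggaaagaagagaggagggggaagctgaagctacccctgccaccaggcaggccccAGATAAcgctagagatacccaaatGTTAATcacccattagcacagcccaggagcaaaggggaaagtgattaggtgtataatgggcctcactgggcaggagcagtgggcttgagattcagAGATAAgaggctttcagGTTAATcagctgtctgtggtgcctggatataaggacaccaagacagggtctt
Fabp6: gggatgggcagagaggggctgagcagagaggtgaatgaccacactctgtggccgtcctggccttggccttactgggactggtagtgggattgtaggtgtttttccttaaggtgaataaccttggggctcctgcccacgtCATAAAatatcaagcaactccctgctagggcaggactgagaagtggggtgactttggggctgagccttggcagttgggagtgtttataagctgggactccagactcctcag
Slc10a2: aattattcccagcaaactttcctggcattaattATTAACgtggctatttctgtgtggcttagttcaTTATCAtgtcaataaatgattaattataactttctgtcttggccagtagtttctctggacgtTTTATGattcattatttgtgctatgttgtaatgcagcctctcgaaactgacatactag

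In the *Lct* stretch, the GATA letters lay 101 and 90 bases before the start, the former on the opposite strand, and the CDX letters lay at 31 bases on the opposite strand. The *Gip* stretch held the GATA letters at 188 and 69 bases and the HNF1 letters at 164 and 52 bases. *Fabp1* had the HNF1 letters at 55 bases and the CDX letters at 174 and 36 bases. *Fabp6* had the CDX letters at 111 bases, and *Slc10a2* had the GATA variant at 120 bases, the HNF1 letters at 153 bases and the CDX letters at 58 bases. A match is a run of letters and not a measured binding site. Within up to 250 bases before the start, the GATA letters were present in 20.4% of the 206 jejunum-higher genes and 21.7% of the 46 ileum-higher genes with a promoter in the tables, against 9.67% of the 10365 tested genes with one. The HNF1 letters were present in 14.1%, 4.35% and 4.07% of the same sets, and the CDX letters in 10.2%, 15.2% and 6.03%. The CDX and GATA letters can share bases where they adjoin, which happened in none of the stretches shown. These shares are descriptions without a test.

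Of the 27 regional transcription factors tested, 4 were higher in the jejunum and 1 was higher in the ileum, against 1.70% and 0.405% of all genes tested. The list median log2 fold change was -0.11, against -0.01 over all genes. *Gata4*, which is known to maintain jejunal identity, had 26.9, 27.6 and 23.8 CPM in the jejunum and 1.2, 0.952 and 0.554 CPM in the ileum. The 3 ileum libraries held little *Gata4* RNA and lay far below the jejunum libraries, with a log2 fold change of -4.82 ± 0.38 SE, adjusted p = 1.0e-09. Its relatives did not pass the test: *Gata5* had a log2 fold change of 0.19 ± 0.37 SE, adjusted p = 0.94 and *Gata6* a log2 fold change of 0.44 ± 0.30 SE, adjusted p = 0.70. *Onecut2*, a factor of the onecut family, had 15.5, 6.75 and 2.72 CPM in the jejunum and 0.453, 0.176 and 0.554 CPM in the ileum (log2 fold change of -4.42 ± 0.57 SE, adjusted p = 6.6e-06). Jejunum replicate 1 was the highest library for *Onecut2*, without which the log2 fold change was -3.56, and the groups did not overlap. *Creb3l3*, a membrane-bound factor that drives lipid transport genes, had 23.4, 64.2 and 36.8 CPM in the jejunum and 0.742, 1.97 and 2.49 CPM in the ileum, a log2 fold change of -4.58 ± 0.67 SE, adjusted p = 4.4e-05. *Gata4*, *Onecut2* and *Creb3l3* kept their calls without any single library and with scaling by library size alone.

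The other two calls among these factors were smaller. *Hnf4g*, a nuclear receptor of enterocytes, had 78.9, 59.5 and 168 CPM in the jejunum and 29.1, 32.0 and 43.2 CPM in the ileum, with a log2 fold change of -1.56 ± 0.35 SE, adjusted p = 0.0094. This call was lost without jejunum replicate 3 (edgeR, adjusted p = 0.207), ileum replicate 1 or ileum replicate 2. *Cdx1*, a caudal homeobox factor of the distal gut, was higher in the ileum, at 21.9, 19.1 and 32.8 CPM in the jejunum and 49.5, 51.9 and 46.6 CPM in the ileum (log2 fold change of 1.0 ± 0.26 SE, adjusted p = 0.035). The call was lost in 4 of the 6 fits that left out a library, up to an adjusted p of 0.206 without jejunum replicate 2 (edgeR). *Cdx2* (log2 fold change of 0.35 ± 0.30 SE, adjusted p = 0.79) and *Hnf4a* (log2 fold change of 0.21 ± 0.28 SE, adjusted p = 0.88) did not pass the test. *Pdx1*, a factor of the duodenum and pancreas, was low in both regions, at 0.834, 1.29 and 0 CPM in the jejunum and 0.165, 0.176 and 0 CPM in the ileum, beside 13.0 CPM in the duodenum.

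Hox genes gave the most one-sided difference toward the ileum. These homeobox genes lie in clusters and are known for being used in order along the body axis. Of 36 Hox genes listed, 20 passed the filter on low counts, and 8 of the 20 were higher in the ileum, against 0.405% of all genes, and none in the jejunum (edgeR, with 1 gene at an unadjusted p under 0.05 in that direction and none called by DESeq2). The filter can pass a gene through its high group alone, so the median log2 fold change of the 20, 3.97, is given as a description. The summed level of the listed Hox genes was 0.607 to 2.06 CPM in the jejunum libraries and 46.3 to 55.3 CPM in the ileum libraries. Of the 8, 7 were neighbours in the Hoxb cluster on chromosome 11. All 8 kept the call without any single library and with scaling by library size alone.

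*Hoxb9* had 0, 0.129 and 0.121 CPM in the jejunum and 13.8, 11.9 and 11.1 CPM in the ileum, with a log2 fold change of 7.0 ± 0.67 SE, adjusted p = 4.9e-08. *Hoxb6* had 0.0758, 0.129 and 0.121 CPM in the jejunum and 12.4, 12.2 and 9.52 CPM in the ileum (log2 fold change of 6.59 ± 0.78 SE, adjusted p = 2.4e-06). *Hoxb7* had 0.0758, 0 and 0.181 CPM in the jejunum and 4.25, 3.95 and 8.58 CPM in the ileum (log2 fold change of 5.87 ± 0.81 SE, adjusted p = 2.9e-05). The ileum libraries lay within a narrow range of each other for *Hoxb9* and *Hoxb6*, while ileum replicate 3 was highest for *Hoxb7*. *Hoxb5* had no count in any jejunum library and 5.94, 6.2 and 5.37 CPM in the ileum, at least 29.1-fold higher when set against 3 counts per library (edgeR, adjusted p = 6.6e-06). *Hoxa3*, the 1 called gene outside the Hoxb cluster, likewise had no count in the jejunum and 1.15, 1.23 and 0.664 CPM in the ileum, at least 5.07-fold higher (edgeR, adjusted p = 0.0052). The levels of *Hoxa3* are low, with ileum replicate 3 nearest to the floor.

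*Hoxb8* had 1 count in the jejunum libraries together and 438 in the ileum, a ratio of pooled and scaled counts of 281 (95% counting interval 50.1 to 11108, edgeR adjusted p = 1.9e-05). For *Hoxb4* the counts were 1 and 164, a ratio of 105 (18.6 to 4175, edgeR adjusted p = 0.0037). *Hoxb3* had 0, 0 and 0.544 CPM in the jejunum and 5.48, 4.16 and 2.82 CPM in the ileum (log2 fold change of 4.39 ± 0.86 SE, adjusted p = 0.0023), so that jejunum replicate 3 alone held *Hoxb3* counts in that region. In contrast *Hoxb2* and *Hoxb13*, nearer the ends of the cluster, did not pass the test, and both groups overlapped. *Hoxb2* had 0, 1.03 and 0 CPM in the jejunum and 0.289, 0.141 and 0.277 CPM in the ileum. *Hoxb13* had 0.227, 0 and 0.121 CPM in the jejunum and 0, 0.0352 and 0.111 CPM in the ileum and stood at 30.3 CPM in Venus-negative cells of the colon. The non-coding gene *Gm53*, which lies at chr11:96251105-96264868 beside *Hoxb9* (chr11:96271457-96276595) and was singled out after its values were seen, had 0.0758, 0 and 0 CPM in the jejunum and 13.6, 12.1 and 10.7 CPM in the ileum. It had 1 count in the jejunum and 865 in the ileum, a ratio of 554 (99.2 to 21913, edgeR adjusted p = 1.1e-09). Coordinates are those of GRCm38 in GENCODE M21, and since the strand setting of the counting is not given in the sources used here, reads of overlapping antisense genes in the cluster cannot be told apart.

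Stromal cells are a known place of Hox expression, and markers of fibroblasts and smooth muscle are given beside these values. Of the 12 listed markers, 7 were tested and none was called (edgeR, with 3 at an unadjusted p under 0.05 and 1 called by DESeq2, toward the ileum). Of the 7, 6 had a positive log2 fold change, and the list median was 3.45, or 3.41 with genes at 0 in a group set at their bound. Over all genes the median was -0.01. The filter can pass a marker through its high group alone, so the list median and signs are given as a description. Their summed level was 16.3, 19.5 and 5.80 CPM in the jejunum and 25.4, 8.49 and 9.14 CPM in the ileum, so the ranges overlapped. *Col3a1*, a fibrillar collagen, had no count in the jejunum and 4.99, 0.388 and 0.886 CPM in the ileum (edgeR, adjusted p = 0.055), with ileum replicate 1 the highest. Outside the list, and singled out after their values were seen, the matrix genes *Abi3bp* and *Fbn1* had no count in the jejunum and means of 1.16 ± 1.03 and 1.18 ± 1.3 CPM in the ileum (SD, 3 libraries), and both were called (edgeR, adjusted p = 0.011 and 0.047). The part of stromal RNA in the Hox differences was not tested.

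**Figure D2:**
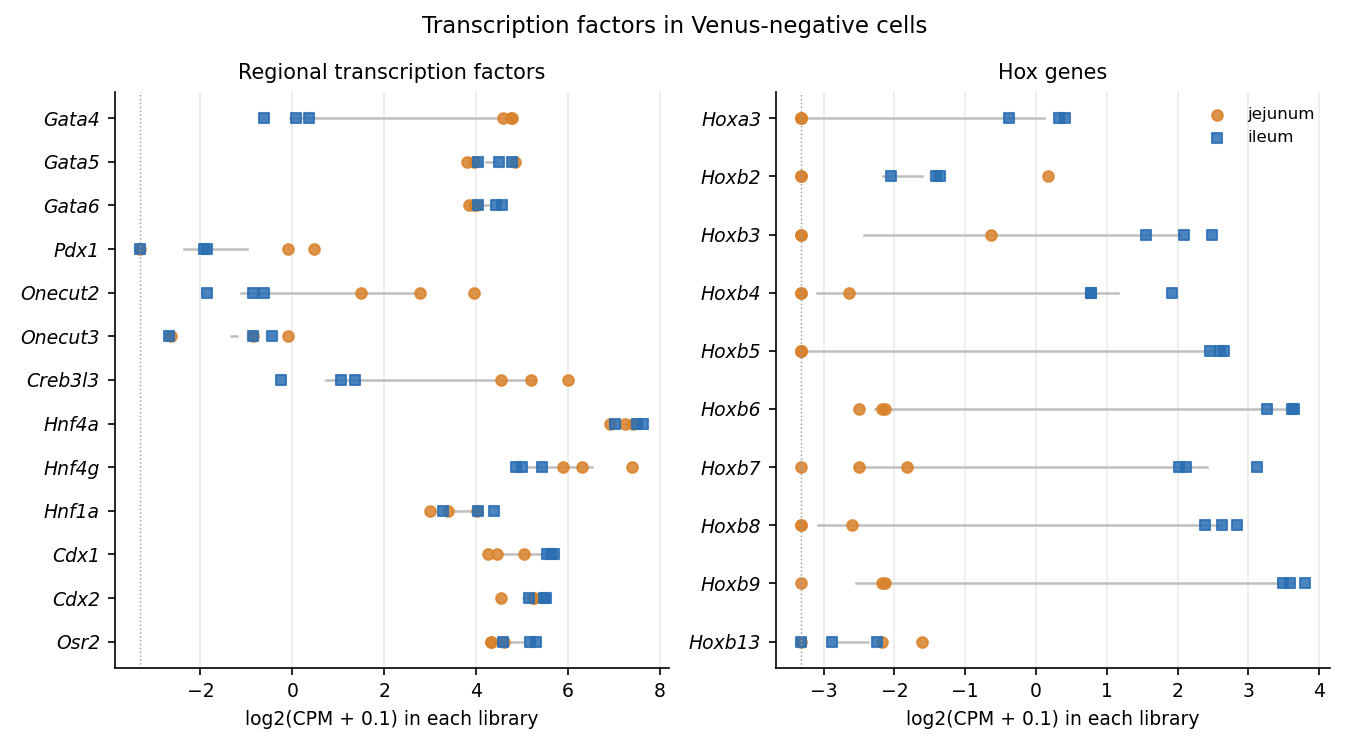
Level in each library as log2(CPM + 0.1) for regional transcription factors (left) and for Hoxa3 and the Hoxb genes tested (right), with jejunum as orange circles, ileum as blue squares, a line between the group means and a dotted line at a count of 0. Gata4, Onecut2 and Creb3l3 separate toward the jejunum, Gata5, Gata6, Hnf4a and Cdx2 overlap, and Hoxb3 to Hoxb9 and Hoxa3 separate toward the ileum.

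Of 11 tested genes of bile acid uptake and FXR signalling, 2 were higher in the ileum (*Slc10a2* and *Fabp6*, above) and 1 was higher in the jejunum, against 0.405% and 1.70% over all genes, with a list median of 0.34. *Abcc2*, an apical exporter of conjugated compounds, had 23.7, 25.7 and 27.6 CPM in the jejunum and 9.11, 6.52 and 6.70 CPM in the ileum, a log2 fold change of -1.78 ± 0.33 SE, adjusted p = 0.0011 without overlap. With scaling by library size alone *Abcc2* was not called (edgeR, adjusted p = 0.0689), and leaving out single libraries ended none of the 3 calls. The basolateral exporter subunits *Slc51a* (log2 fold change of 0.34 ± 0.35 SE, adjusted p = 0.84) and *Slc51b* (log2 fold change of 0.30 ± 0.44 SE, adjusted p = 0.90) did not pass the test. *Nr1h4*, the bile acid receptor FXR, had 12.7, 15.2 and 27.8 CPM in the jejunum and 26.8, 28.3 and 31.3 CPM in the ileum and did not pass either (log2 fold change of 0.63 ± 0.28 SE, adjusted p = 0.38). *Fgf15*, the hormone that signals ileal bile acids to the liver, had 0, 0.129 and 0.0604 CPM in the jejunum and 1.07, 1.23 and 0.111 CPM in the ileum. The ratio of pooled counts was 13.5 (95% counting interval 4.40 to 67.0) and did not pass the test (edgeR, adjusted p = 0.16). *Slc10a2* stood at 0.892 CPM in the duodenum and 8.80 CPM in the colon, and *Fabp6* at 0.775 and 4.24 CPM. In Venus-negative cells the ileum held the highest mean of the 4 regions for both genes.

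Most genes of fat absorption were higher in the jejunum. Of 21 tested genes of dietary fat uptake and chylomicron assembly, 15 were higher in the jejunum and none in the ileum (edgeR, with none in that direction at an unadjusted p under 0.05 or by DESeq2), with a list median of -1.78. Over all genes tested, 1.70% were higher in the jejunum. *Apoa4*, an apolipoprotein of chylomicrons, had 681, 798 and 644 CPM in the jejunum and 5.11, 3.70 and 5.37 CPM in the ileum. Every jejunum library was far above every ileum library, with a log2 fold change of -7.23 ± 0.63 SE, adjusted p = 4.5e-09. *Apoc3*, an inhibitor of lipoprotein lipase, had 24.5, 14.3 and 20.7 CPM in the jejunum and 0.412, 0.282 and 0.277 CPM in the ileum (log2 fold change of -5.89 ± 0.60 SE, adjusted p = 7.5e-08). *Cd36*, a fatty acid translocase, had 6.67, 4.24 and 10.6 CPM in the jejunum and 0.0412, 0.705 and 0.0554 CPM in the ileum, with ileum replicate 2 above the other ileum libraries (log2 fold change of -4.59 ± 0.67 SE, adjusted p = 4.7e-05). Without that library the log2 fold change of *Cd36* was -7.00.

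The enzymes of triglyceride resynthesis and lipid loading followed with smaller differences. *Mttp*, which loads lipid onto apolipoprotein B, had 178, 222 and 339 CPM in the jejunum and 28.6, 52.7 and 40.1 CPM in the ileum (log2 fold change of -2.61 ± 0.37 SE, adjusted p = 2.9e-05). *Dgat1*, which makes the final triglyceride bond, had 39.3, 55.9 and 86.6 CPM in the jejunum and 17.9, 20.1 and 14.8 CPM in the ileum (log2 fold change of -1.78 ± 0.31 SE, adjusted p = 4.4e-04), and neither gene's groups overlapped. *Apoa1* (log2 fold change of -2.02 ± 0.44 SE, adjusted p = 0.0072) and *Apob* (log2 fold change of -1.62 ± 0.40 SE, adjusted p = 0.020), proteins of the chylomicron surface, were also higher in the jejunum. So were *Fabp2*, a fatty acid binding protein (log2 fold change of -2.22 ± 0.46 SE, adjusted p = 0.0040), and *Mogat2*, which acylates monoacylglycerol (log2 fold change of -2.02 ± 0.45 SE, adjusted p = 0.0081). The remaining calls were *Creb3l3* (above), *Dgat2*, *Slc27a4*, *Acsl5* and *Pla2g12b*, with log2 fold changes between -2.06 and -1.32 for the last 4. Of the 15 calls, 7 held without each library in turn, and the other 8 were all lost without ileum replicate 1. *Pla2g12b* reached an adjusted p of 0.347 without ileum replicate 1 (edgeR). With scaling by library size alone, 8 of the 15 were called and the list median was -1.21, against 0.61 for all genes.

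Sugar transporters and enzymes gave a similar count. Of 14 tested genes of sugar uptake and fructose handling, 11 were higher in the jejunum (1.70% over all genes) and none in the ileum (edgeR, with none in that direction at an unadjusted p under 0.05 or by DESeq2), and the list median was -2.16. *Slc2a2*, the transporter GLUT2 that passes sugars to the blood, had 14.3, 16.3 and 15.1 CPM in the jejunum and 0.948, 0.176 and 0.332 CPM in the ileum. The jejunum libraries lay close together and above all ileum libraries (log2 fold change of -4.95 ± 0.47 SE, adjusted p = 2.6e-08). *Khk*, which phosphorylates fructose, had 53.5, 38.2 and 76.2 CPM in the jejunum and 8.57, 9.06 and 11.6 CPM in the ileum (log2 fold change of -2.53 ± 0.32 SE, adjusted p = 4.1e-06). *Slc2a5*, the apical fructose transporter, had 5.08, 6.56 and 6.83 CPM in the jejunum and 1.24, 1.16 and 0.498 CPM in the ileum (log2 fold change of -2.64 ± 0.58 SE, adjusted p = 0.0068). Both fructose genes, one of uptake and the other of phosphorylation, were thus higher in the jejunum.

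*Slc5a1*, the sodium-glucose cotransporter SGLT1, differed less, at 153, 216 and 291 CPM in the jejunum and 76.8, 95.6 and 103 CPM in the ileum (log2 fold change of -1.26 ± 0.32 SE, adjusted p = 0.029). It lost its call in 4 of the 6 fits without a library, up to an adjusted p of 0.221 without ileum replicate 1 (edgeR). *G6pc*, the catalytic subunit that releases free glucose, had a log2 fold change of -2.71 ± 0.57 SE, adjusted p = 0.0052, and *Pck1*, of gluconeogenesis, a log2 fold change of -1.77 ± 0.44 SE, adjusted p = 0.022. *Slc5a4a* and *Slc5a4b*, near-identical neighbours whose shared reads were not counted, were also higher in the jejunum. *Slc5a4a* had 3.49, 0.900 and 2.54 CPM in the jejunum and 0.206, 0.0705 and 0.222 CPM in the ileum and *Slc5a4b* had 3.56, 1.54 and 5.02 CPM in the jejunum and 0.618, 0.670 and 0.166 CPM in the ileum. *Pck1*, *Slc5a4a* and *Slc5a4b* were each not called in 3 of the 6 fits without a library (edgeR, adjusted p up to 0.195). Of the 10 called sugar genes named here, 6 lost the call without some single library, and the largest adjusted p was 0.487, for *Slc2a7* without jejunum replicate 2 (edgeR). *Slc2a7* had 0.455, 3.99 and 0.786 CPM in the jejunum and 0.0824, 0.423 and 0.0554 CPM in the ileum, with jejunum replicate 2 the highest. *Slc5a11*, a sodium-coupled inositol carrier, had 4.09, 4.89 and 6.47 CPM in the jejunum and 0.701, 1.3 and 2.49 CPM in the ileum (log2 fold change of -1.80 ± 0.47 SE, adjusted p = 0.036). With scaling by library size alone, 4 of the 11 were called.

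**Figure D3:**
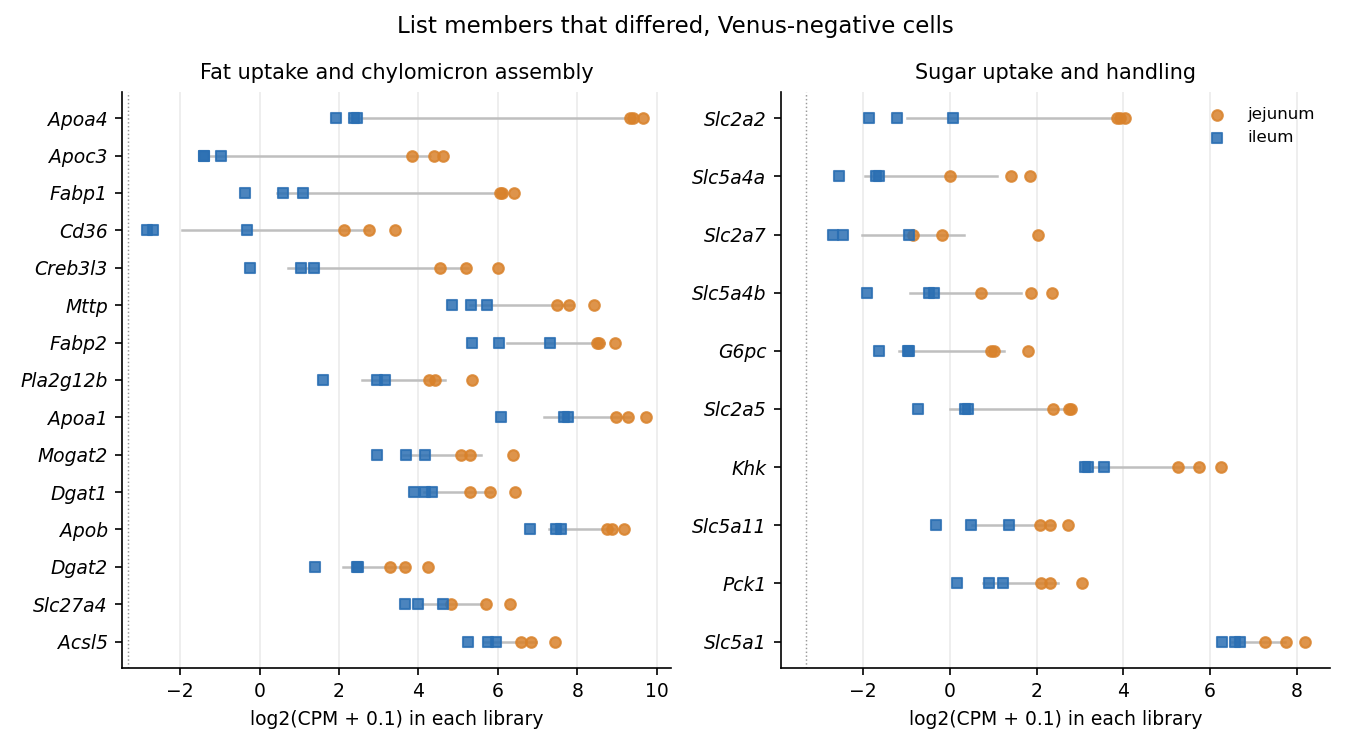
Level in each library as log2(CPM + 0.1) for the called genes of fat uptake and chylomicron assembly (left, 15 genes) and of sugar uptake and handling (right, those described here), with jejunum as orange circles, ileum as blue squares, a line between the group means and a dotted line at a count of 0. Genes are ordered by log2 fold change, so that Apoa4 and Slc2a2, at the top, show the widest gaps, and Acsl5 and Slc5a1, at the bottom, the narrowest.

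Among 19 brush border enzymes, 6 were higher in the jejunum (1.70% over all genes) and 1 was higher in the ileum (0.405% over all genes), with a list median of -1.07. Beside *Lct*, the peptidases *Ace* and *Mme* were higher in the jejunum without overlap. *Ace*, angiotensin-converting enzyme, had 84.2, 147 and 110 CPM in the jejunum and 11.5, 23.3 and 14 CPM in the ileum (log2 fold change of -2.81 ± 0.37 SE, adjusted p = 8.3e-06). *Mme*, neprilysin, had 48.9, 33.9 and 60.4 CPM in the jejunum and 3.92, 5.15 and 11.5 CPM in the ileum (log2 fold change of -2.81 ± 0.40 SE, adjusted p = 2.9e-05). *Alpi*, the intestinal alkaline phosphatase, had a log2 fold change of -2.68 ± 0.55 SE, adjusted p = 0.0042, and *Treh*, trehalase, a log2 fold change of -2.29 ± 0.47 SE, adjusted p = 0.0040. *Mep1a*, the alpha subunit of meprin, went the other way, with 15.3, 19.7 and 20.4 CPM in the jejunum and 48.7, 59.1 and 45.5 CPM in the ileum (log2 fold change of 1.47 ± 0.31 SE, adjusted p = 0.0045). All 3 ileum libraries exceeded all 3 jejunum libraries for *Mep1a*. *Sis*, sucrase-isomaltase, had 383, 383 and 498 CPM in the jejunum and 222, 127 and 209 CPM in the ileum (log2 fold change of -1.18 ± 0.31 SE, adjusted p = 0.037), a call that was lost when any library was left out, up to an adjusted p of 0.293 without ileum replicate 2 (edgeR). The other 6 calls held without each library in turn. *Mgam*, maltase-glucoamylase, had 275, 411 and 294 CPM in the jejunum and 514, 340 and 306 CPM in the ileum and did not pass the test (log2 fold change of 0.24 ± 0.31 SE, adjusted p = 0.88). The aminopeptidases *Anpep* (log2 fold change of -0.38 ± 0.46 SE, adjusted p = 0.87) and *Enpep* (log2 fold change of -0.48 ± 0.35 SE, adjusted p = 0.74) did not pass either, and the groups of these 3 genes overlapped.

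Of 17 amino acid and peptide transporters, 7 were higher in the jejunum (1.70% over all genes) and none in the ileum (edgeR, with none in that direction at an unadjusted p under 0.05 or by DESeq2), with a list median of -1.07. *Slc15a1*, the peptide transporter PEPT1, had 44.4, 47.1 and 59.6 CPM in the jejunum and 6.51, 16.7 and 16.2 CPM in the ileum (log2 fold change of -1.94 ± 0.39 SE, adjusted p = 0.0032). *Slc7a8*, a basolateral carrier of neutral amino acids, had 29.3, 30.6 and 35.1 CPM in the jejunum and 7.34, 5.50 and 3.88 CPM in the ileum (log2 fold change of -2.50 ± 0.37 SE, adjusted p = 5.7e-05). *Slc7a15* had 2.65, 6.30 and 5.02 CPM in the jejunum and 0.453, 0.811 and 0.443 CPM in the ileum (log2 fold change of -2.99 ± 0.39 SE, adjusted p = 1.3e-05). These 3 did not overlap between the groups and held without each library in turn. *Slc36a1*, *Slc43a2*, *Slc3a2* and *Slc7a9* had log2 fold changes between -1.62 and -1.19 and each lost its call without at least 1 library, with the largest adjusted p, 0.355, for *Slc7a9* without jejunum replicate 3 (edgeR). None of them was called with scaling by library size alone (edgeR, adjusted p from 0.096 to 0.227). Without ileum replicate 1 the list held 3 calls. *Slc6a19*, the main apical carrier of neutral amino acids, had 25.6, 30.5 and 37.5 CPM in the jejunum and 2.47, 13.4 and 14 CPM in the ileum without overlap and did not pass the test (log2 fold change of -1.65 ± 0.47 SE, adjusted p = 0.059).

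Among 19 genes of iron, calcium and vitamin handling, 3 were higher in the jejunum (1.70% over all genes) and 1 was higher in the ileum (0.405% over all genes), and the list median of -0.44 turned to 0.15 with scaling by library size alone. *Rbp2*, which binds retinol inside enterocytes, had 58.7, 81.1 and 51.3 CPM in the jejunum and 1.48, 4.83 and 3.21 CPM in the ileum, far apart (log2 fold change of -4.32 ± 0.48 SE, adjusted p = 3.4e-07). *Slc23a1*, the vitamin C transporter, had 3.87, 2.76 and 2.30 CPM in the jejunum and 0.0412, 0 and 0.443 CPM in the ileum (log2 fold change of -4.34 ± 0.89 SE, adjusted p = 0.0040), and log2 fold changes of -3.66 without ileum replicate 2 and -6.76 without ileum replicate 3. *Scarb1*, a lipoprotein receptor that also takes up carotenoids, had 5.23, 5.98 and 0.484 CPM in the jejunum and 0.577, 0.775 and 0.166 CPM in the ileum, where jejunum replicate 3 lay among the ileum libraries (log2 fold change of -2.88 ± 0.78 SE, adjusted p = 0.044). It was not called in 5 of the 6 fits without a library, up to an adjusted p of 0.191 without jejunum replicate 2 (edgeR). *Slc40a1*, the iron exporter ferroportin, was higher in the ileum, at 0.682, 2.83 and 2.06 CPM in the jejunum and 8.90, 22 and 6.81 CPM in the ileum (log2 fold change of 2.74 ± 0.62 SE, adjusted p = 0.010). It lost its call without jejunum replicate 1 or without ileum replicate 2 (edgeR, adjusted p = 0.120). Its mean in the duodenum, where most iron is absorbed, was 41.7 CPM, so the jejunum held the lowest of the 4 regional means.

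Of 20 genes of cholesterol synthesis, uptake and efflux, 2 were higher in the jejunum, against 1.70% of all genes tested, and none in the ileum (edgeR, with 2 in that direction at an unadjusted p under 0.05 and none by DESeq2), with a list median of -0.003. *Npc1l1*, the apical sterol importer, had 63.8, 105 and 79.5 CPM in the jejunum and 19.3, 37.5 and 25.9 CPM in the ileum (log2 fold change of -1.58 ± 0.34 SE, adjusted p = 0.0062). *Soat2*, which esterifies absorbed cholesterol, had 15, 27.7 and 19.1 CPM in the jejunum and 7.91, 7.22 and 5.98 CPM in the ileum (log2 fold change of -1.55 ± 0.33 SE, adjusted p = 0.0060). Each of these calls was lost without 1 library, *Npc1l1* without ileum replicate 1 (edgeR, adjusted p = 0.0829) and *Soat2* without jejunum replicate 2 (edgeR, adjusted p = 0.0588). Neither gene was called with scaling by library size alone (edgeR, adjusted p = 0.092 and 0.147). Of 19 genes of fatty acid oxidation and ketone synthesis, *Pdk4*, the kinase that restrains pyruvate oxidation, was the 1 call (log2 fold change of -3.39 ± 0.78 SE, adjusted p = 0.011). It was lost without jejunum replicate 1 (edgeR, adjusted p = 0.10), ileum replicate 1 or ileum replicate 3.

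Xenobiotic and retinoid metabolism held the largest number of calls of any list. Of 34 tested genes, 16 were higher in the jejunum (1.70% over all genes) and none in the ileum (edgeR, with 1 in that direction at an unadjusted p under 0.05 and none by DESeq2), with a list median of -1.46. *Cyp3a11*, a major drug-metabolising cytochrome, had 28.2, 15.4 and 24.4 CPM in the jejunum and 1.03, 0.564 and 1.77 CPM in the ileum (log2 fold change of -4.37 ± 0.42 SE, adjusted p = 2.6e-08). *Cyp2c66* had 3.72, 1.86 and 3.93 CPM in the jejunum and 1 count over the 3 ileum libraries, a ratio of pooled counts of 223 (95% counting interval 39.4 to 8878, edgeR adjusted p = 7.0e-04). *Cyp2b10* had 3.03, 4.50 and 2.66 CPM in the jejunum and 0.124, 0.176 and 0.0554 CPM in the ileum (log2 fold change of -4.67 ± 0.60 SE, adjusted p = 8.1e-06). Reads that map to several of these closely related Cyp2c and Cyp3a genes were not counted to any, so their levels are uncertain where copies are near-identical.

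The nuclear receptor *Nr1i3*, known as CAR, switches on Cyp2b genes in response to foreign compounds. It had 8.34, 6.62 and 8.22 CPM in the jejunum and 1.03, 0.352 and 0.498 CPM in the ileum (log2 fold change of -3.61 ± 0.60 SE, adjusted p = 2.8e-04). *Nr1i2*, known as PXR, had 14.3, 18.0 and 13.7 CPM in the jejunum and 14, 12.6 and 9.69 CPM in the ileum and did not pass the test (log2 fold change of -0.34 ± 0.30 SE, adjusted p = 0.80). *Aadac*, a lipid and drug deacetylase, had 57.9, 38.1 and 121 CPM in the jejunum and 3.83, 1.62 and 1.66 CPM in the ileum (log2 fold change of -4.92 ± 0.60 SE, adjusted p = 2.2e-06), and a log2 fold change of -4.32 without jejunum replicate 3. *Adh6a*, an alcohol dehydrogenase, had 12.4, 10.8 and 14.6 CPM in the jejunum and 0.536, 0.423 and 0.554 CPM in the ileum (log2 fold change of -4.64 ± 0.47 SE, adjusted p = 7.8e-08). *Aldh1a1*, which makes retinoic acid from retinal, had 44.8, 29.2 and 59.8 CPM in the jejunum and 9.65, 17.3 and 16.4 CPM in the ileum (log2 fold change of -1.63 ± 0.29 SE, adjusted p = 8.3e-04). None of these 4 called genes overlapped between the regions. The remaining calls were *Ces2c*, *Ces2e*, *Cyp2c65*, *Cyp2d26*, *Cyp3a13*, *Cyp3a25*, *Gstm3*, *Sult1b1* and *Ugt1a1*, all enzymes of drug oxidation, hydrolysis or conjugation, with log2 fold changes between -3.00 and -1.48. Of the 16 calls, 12 held without each library in turn, and the largest adjusted p was 0.430, for *Ugt1a1* without jejunum replicate 3 (edgeR). Scaling by library size alone ended the calls of *Aldh1a1*, *Ces2c*, *Ces2e*, *Sult1b1* and *Ugt1a1* (edgeR, adjusted p from 0.059 to 0.177).

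Of 26 tested enteroendocrine genes, 5 were higher in the jejunum (1.70% over all genes) and none in the ileum (edgeR, with none in that direction at an unadjusted p under 0.05 or by DESeq2), with a list median of -1.3 and a negative log2 fold change for 24 of the 26. *Gip*, the incretin of K cells, had 375, 339 and 72.5 CPM in the jejunum and 3.34, 6.70 and 3.88 CPM in the ileum. Jejunum replicate 3 was the lowest of its group and still more than 10 times every ileum library, with a log2 fold change of -5.81 ± 0.52 SE, adjusted p = 6.5e-09. *Cck*, cholecystokinin, had 36.8, 30.9 and 17.4 CPM in the jejunum and 1.65, 6.59 and 2.66 CPM in the ileum (log2 fold change of -2.95 ± 0.50 SE, adjusted p = 4.1e-04). *Sct*, secretin, had 68.4, 55.8 and 28.3 CPM in the jejunum and 5.85, 9.37 and 13.0 CPM in the ileum (log2 fold change of -2.44 ± 0.45 SE, adjusted p = 0.0012). *Ghrl*, ghrelin, had 16.0, 7.58 and 5.98 CPM in the jejunum and 1.69, 0.564 and 0.111 CPM in the ileum (log2 fold change of -3.59 ± 0.85 SE, adjusted p = 0.016). The prohormone-processing enzyme *Cpe* had 29.1, 40.4 and 11.5 CPM in the jejunum and 6.93, 9.90 and 3.82 CPM in the ileum (log2 fold change of -1.96 ± 0.49 SE, adjusted p = 0.023). These calls were lost without single libraries, *Ghrl* without jejunum replicate 1, ileum replicate 2 or ileum replicate 3 (edgeR, adjusted p up to 0.103) and *Cpe* without jejunum replicate 1 or 2 or ileum replicate 1 or 3 (edgeR, adjusted p up to 0.177). *Ghrl* was not called by DESeq2 either (adjusted p = 0.0791), nor *Cpe* with scaling by library size alone (edgeR, adjusted p = 0.127).

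The chromogranins, granule proteins that enteroendocrine cells share, did not pass the test. *Chga*, chromogranin A, had 260, 290 and 73.2 CPM in the jejunum and 115, 118 and 42.7 CPM in the ileum (log2 fold change of -1.18 ± 0.50 SE, adjusted p = 0.33). *Chgb* had 635, 833 and 143 CPM in the jejunum and 245, 287 and 86.6 CPM in the ileum (log2 fold change of -1.38 ± 0.53 SE, adjusted p = 0.26). For *Gip*, *Chga* and *Chgb* alike, replicate 3 was the lowest jejunum library. The summed level of the listed enteroendocrine genes was 2229, 2080 and 650 CPM in the jejunum and 522, 749 and 372 CPM in the ileum, so that jejunum replicate 3 lay among the ileum libraries. Hormones known from the distal gut did not pass the test. *Gcg*, the proglucagon gene, had 53.2, 31.1 and 45.7 CPM in the jejunum and 25.7, 60.4 and 61.2 CPM in the ileum (log2 fold change of 0.18 ± 0.53 SE, adjusted p = 0.96). *Pyy*, peptide YY, had 8.42, 7.97 and 3.45 CPM in the jejunum and 1.94, 7.79 and 3.93 CPM in the ileum (log2 fold change of -0.53 ± 0.62 SE, adjusted p = 0.87). *Nts*, neurotensin (log2 fold change of -1.65 ± 0.57 SE, adjusted p = 0.18), and *Sst*, somatostatin (log2 fold change of -1.62 ± 0.50 SE, adjusted p = 0.10), had lower estimates in the ileum that did not pass either. The part of the number of enteroendocrine cells in the *Gip*, *Cck* and *Sct* differences was not tested.

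Of 24 epithelial antimicrobial and inflammatory genes, 5 were higher in the jejunum (1.70% over all genes) and 1 was higher in the ileum (0.405% over all genes), with a list median of 0.22. *Il18*, an epithelial cytokine, had 17.6, 19.8 and 26.3 CPM in the jejunum and 1.65, 4.62 and 4.32 CPM in the ileum (log2 fold change of -2.59 ± 0.37 SE, adjusted p = 2.9e-05). *Ccl25*, the chemokine that draws T cells to the small intestine, had 441, 289 and 495 CPM in the jejunum and 145, 129 and 214 CPM in the ileum (log2 fold change of -1.33 ± 0.28 SE, adjusted p = 0.0051). It had an adjusted p of 0.0661 without ileum replicate 2 (edgeR), and was not called without ileum replicate 1 either. *Reg1* had 3.87, 5.91 and 6.04 CPM in the jejunum and 0.660, 0.846 and 1.61 CPM in the ileum (log2 fold change of -2.37 ± 0.44 SE, adjusted p = 0.0012). *Reg3a* had a log2 fold change of -2.34 ± 0.48 SE, adjusted p = 0.0038 and *Reg4* a log2 fold change of -2.51 ± 0.66 SE, adjusted p = 0.035. The call of *Reg3a* was lost without jejunum replicate 3 (edgeR, adjusted p = 0.0513) and that of *Reg4* in 4 fits (edgeR, adjusted p up to 0.20 without jejunum replicate 1). *Saa1*, serum amyloid A, was higher in the ileum, at 0, 0.193 and 0.363 CPM in the jejunum and 0.907, 14.3 and 5.15 CPM in the ileum (log2 fold change of 5.06 ± 0.95 SE, adjusted p = 0.0015). Ileum replicate 1 had the lowest ileal *Saa1* level and was still above the jejunum libraries. Without ileum replicate 2, the highest, the log2 fold change of *Saa1* was 3.87, and without jejunum replicate 3 it was 5.94, both still called. *Reg3b* and *Reg3g*, C-type lectins with antibacterial activity, ranged several-fold within each region. *Reg3g* had 103, 763 and 482 CPM in the jejunum and 190, 1116 and 711.3 CPM in the ileum and did not pass the test (log2 fold change of 0.58 ± 0.61 SE, adjusted p = 0.84).

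In the guanylin pathway, 3 of 9 genes were higher in the jejunum (1.70% over all genes) and none in the ileum (edgeR, with none in that direction at an unadjusted p under 0.05 or by DESeq2), and the list median of -0.33 turned to 0.36 with scaling by library size alone. *Guca2b*, which encodes uroguanylin, had 99.7, 123 and 149 CPM in the jejunum and 23.5, 26.4 and 42.0 CPM in the ileum, without overlap (log2 fold change of -2.01 ± 0.31 SE, adjusted p = 1.1e-04), while *Guca2a* did not pass the test (above). *Slc9a3*, the sodium-proton exchanger NHE3 that guanylate cyclase C signalling inhibits, had 13.0, 50.5 and 34.5 CPM in the jejunum and 1.07, 3.52 and 0.720 CPM in the ileum (log2 fold change of -4.16 ± 0.64 SE, adjusted p = 8.7e-05). *Slc26a3*, a chloride-bicarbonate exchanger, had 19.3, 22.7 and 38.3 CPM in the jejunum and 10.9, 7.75 and 7.53 CPM in the ileum (log2 fold change of -1.61 ± 0.39 SE, adjusted p = 0.019) and lost its call without jejunum replicate 3 (edgeR, adjusted p = 0.179), ileum replicate 2 or ileum replicate 3. *Gucy2c*, the receptor guanylate cyclase C, had 53.4, 73.7 and 50.2 CPM in the jejunum and 72.4, 77.4 and 48.0 CPM in the ileum and did not pass the test (log2 fold change of 0.16 ± 0.26 SE, adjusted p = 0.91). Nor did the chloride channel *Cftr* (log2 fold change of 0.33 ± 0.36 SE, adjusted p = 0.85) or the kinase *Prkg2* (log2 fold change of -0.33 ± 0.34 SE, adjusted p = 0.83).

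The remaining genes with the largest differences belong to no list. *Enpp7*, the sphingomyelin-digesting enzyme of the brush border, had 28.1, 76.4 and 51.2 CPM in the jejunum and 0.907, 1.55 and 0.388 CPM in the ileum (log2 fold change of -5.72 ± 0.55 SE, adjusted p = 3.0e-08). In Venus-negative cells of the duodenum and colon *Enpp7* stood at 1.10 and 0.534 CPM, so the jejunum alone held a high mean. *Acot12*, a cytosolic acetyl-CoA hydrolase, had 3.72, 9.38 and 4.84 CPM in the jejunum and 0.0412, 0.0705 and 0.0554 CPM in the ileum (log2 fold change of -6.53 ± 0.75 SE, adjusted p = 8.2e-07). *Npl*, which cleaves free sialic acid, had 3.03, 4.76 and 4.84 CPM in the jejunum and 0.0824, 0.0352 and 0.111 CPM in the ileum (log2 fold change of -5.72 ± 0.75 SE, adjusted p = 8.6e-06). *Afp*, alpha-fetoprotein, had 36.5, 13.2 and 12.6 CPM in the jejunum and 0.495, 0.0705 and 0.0554 CPM in the ileum (log2 fold change of -6.56 ± 0.72 SE, adjusted p = 5.8e-07), with jejunum replicate 1 the highest. Its log2 fold change was -5.84 without that library and -8.15 without ileum replicate 1. *Unc93a* had no count in any ileum library and 1.14, 2.31 and 0.786 CPM in the jejunum, at least 10.7-fold higher (adjusted p = 3.6e-04). The serine protease gene *Prss12* likewise had no count in the ileum and 2.81, 1.61 and 3.14 CPM in the jejunum, at least 19.1-fold higher (adjusted p = 0.010). *Prss12* lost its call without ileum replicate 1 (edgeR, adjusted p = 0.0634) or ileum replicate 2.

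Toward the ileum, the other genes among the 12 largest were *St6gal1* and *Anxa1*. *St6gal1*, a sialyltransferase of the Golgi, had 0, 0.0643 and 0.0604 CPM in the jejunum and 3.50, 2.71 and 2.93 CPM in the ileum, with 2 counts against 215 and a ratio of 68.9 (95% counting interval 18.8 to 572, edgeR adjusted p = 3.7e-04). *Anxa1*, annexin A1, had no count in the jejunum and 0.453, 1.34 and 0.720 CPM in the ileum, at least 4.18-fold higher (edgeR, adjusted p = 2.2e-04). Its fitted log2 fold change, which is no bound, moved from 6.70 to 6.10 without ileum replicate 2. Among all 317 called genes, 9 had no count in their lower group and 17 had 1 to 3 counts there, so their fold changes are limited by depth.

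No listed gene of goblet, Paneth, tuft or stem cells passed the test of edgeR. In 17 of the 31 lists no member was called by edgeR, and over the 183 genes of these lists 7 toward the jejunum and 17 toward the ileum had an unadjusted p under 0.05, while DESeq2 called 3, all toward the ileum. The lists of goblet cells (median 0.14), Paneth cells (-0.59), tuft cells (0.26) and proliferation (0.12) were among them. *Muc2*, the goblet cell mucin, had 9.40, 19.8 and 7.31 CPM in the jejunum and 8.45, 16.7 and 15.2 CPM in the ileum. *Lyz1*, the Paneth cell lysozyme, had 94.9, 63.4 and 210 CPM in the jejunum and 96.7, 63.8 and 87.3 CPM in the ileum. *Mki67*, of cycling cells, had 96.1, 106 and 38.7 CPM in the jejunum and 142, 150 and 76.3 CPM in the ileum. The groups overlapped for each of the 3 genes. All 16 genes of stem cells and Wnt targets had a positive log2 fold change (median 0.78) without 1 passing the test of edgeR. By that test 7 had an unadjusted p under 0.05, and DESeq2 called 1 toward the ileum. *Lgr5*, a receptor of crypt base stem cells, had 6.82, 16.6 and 5.20 CPM in the jejunum and 41.8, 17.2 and 19.2 CPM in the ileum (log2 fold change of 1.45 ± 0.67 SE, adjusted p = 0.42). *Ephb3*, which helps to position crypt cells, had 7.20, 4.95 and 4.96 CPM in the jejunum and 21.9, 11.2 and 13.8 CPM in the ileum (log2 fold change of 1.46 ± 0.42 SE, adjusted p = 0.073), and neither gene's groups overlapped.

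Markers of other cell types were low in both groups. Summed levels were 1.67 to 6.24 CPM in the jejunum and 3.49 to 18.9 CPM in the ileum for B cells and plasma cells. They were 1.59 to 25.6 and 2.06 to 26.6 CPM for T cells and intraepithelial lymphocytes, with replicate 2 of each region the highest. Macrophages and dendritic cells gave 2.88 to 5.40 and 3.65 to 4.99 CPM, and endothelium 2.27 to 2.83 and 3.56 to 4.99 CPM. The endothelial sums did not overlap and were each a few CPM. Enteric neurons and glia summed to 1.21 to 3.92 and 1.24 to 3.10 CPM, and pancreatic acinar genes to 1.99 to 3.26 and 1.61 to 5.09 CPM. The medians of these 6 lists were 0.40, 0.14, 0.29, 1.05, -0.57 and 0.13, and of their 12, 15, 12, 10, 10 and 10 members 5, 10, 3, 6, 2 and 1 passed the filter. M cells and follicle epithelium (median 0.17), MHC class II and antigen presentation (-0.05), claudins and junctions (-0.04), immediate early and heat shock genes (-0.43) and general epithelial genes (-0.09) completed the lists without a call.

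**Figure D4:**
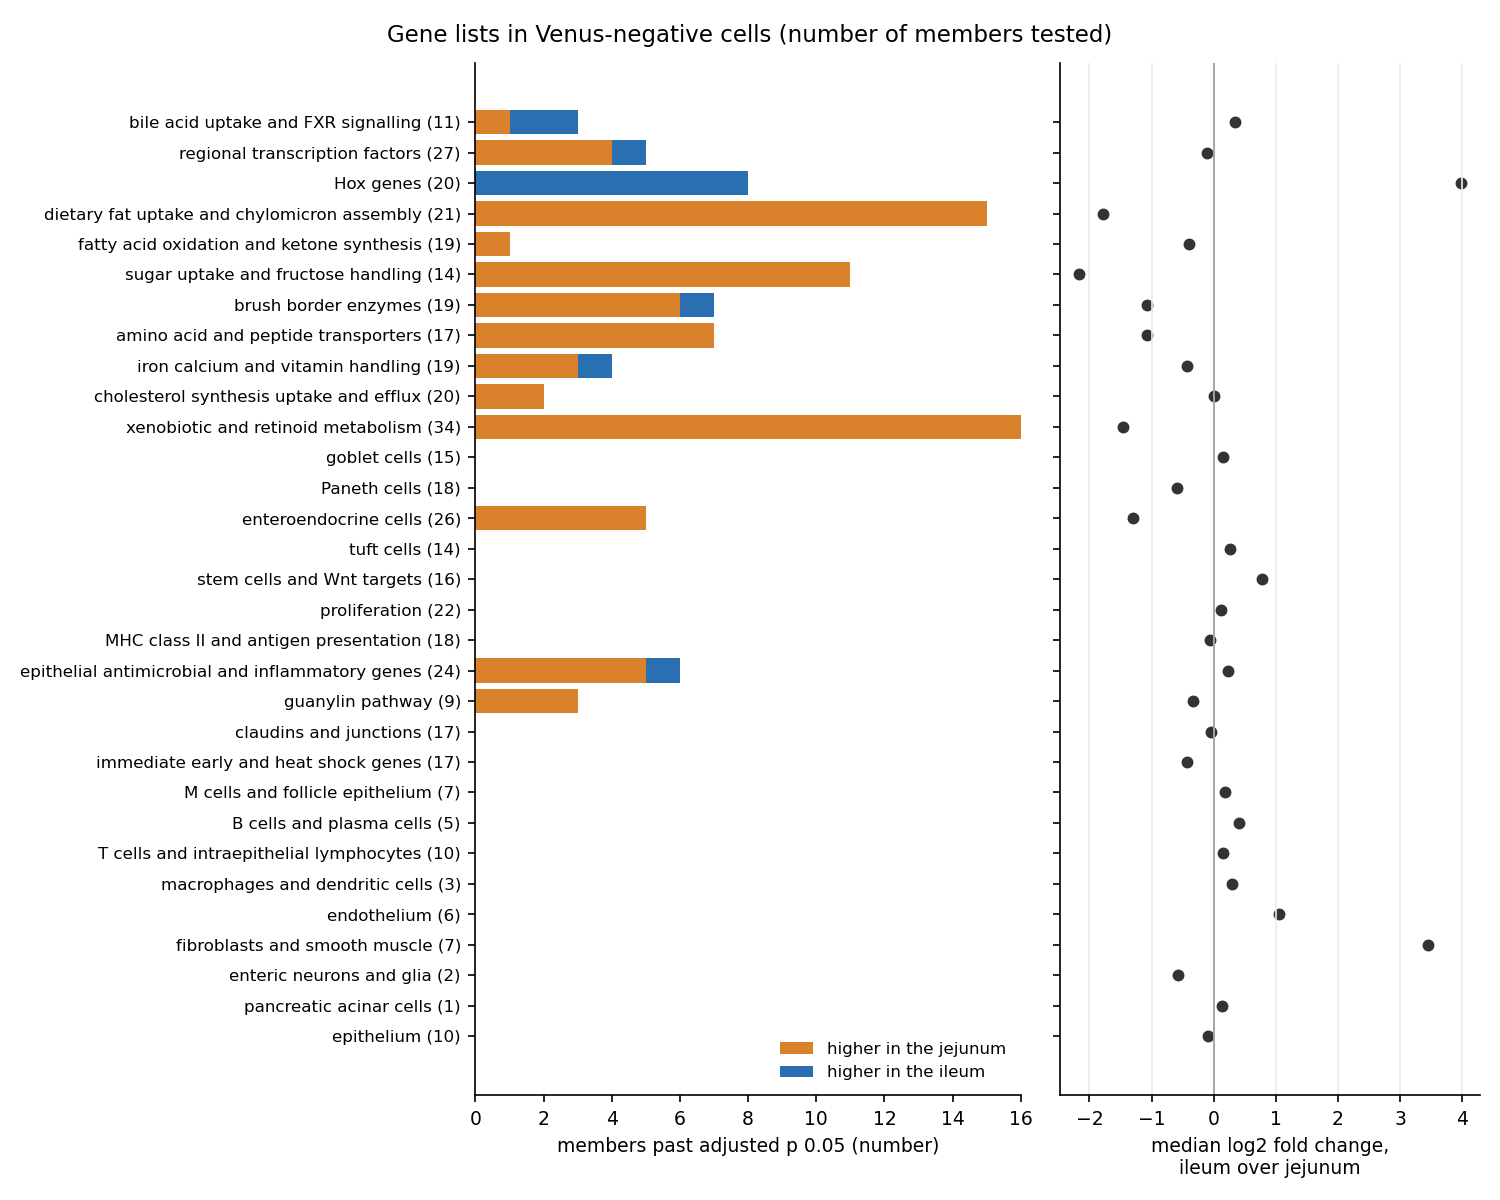
For each of the 31 gene lists (number of members tested in brackets), the bars give the number of members past an adjusted p of 0.05, orange for higher in the jejunum and blue for higher in the ileum, and the points give the median log2 fold change of the members tested. Fat, sugar, amino acid, xenobiotic and enteroendocrine lists hold calls toward the jejunum only, Hox genes hold calls toward the ileum only, and 17 lists hold none.

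The same regional contrast was available in Venus-positive cells of the jejunum and ileum, in 6 other libraries. Both sorts were collected from the digested cells of each tissue, so their libraries may share mice and are no independent repeat. The fits do not use such a pairing. In Venus-positive cells 775 genes (5.15% of those tested) were called, 323 higher in the jejunum and 452 higher in the ileum. Both sorts called 176 genes, 174 of them in the same direction, which is 54.9% of the Venus-negative calls and 22.5% of the Venus-positive calls. Of the 317 genes called in Venus-negative cells, 294 had the same sign in Venus-positive cells. The share with the same sign over all genes tested is not given here. *Lct* had a log2 fold change of -7.47 in Venus-positive cells, *Gata4* -4.17, *Slc10a2* 8.20 and *Hoxb9* 7.63, each past the threshold there too. The difference between the contrasts themselves was tested with an interaction term, which called 40 genes (0.266%), 9 of them among the 317.

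Among these 9, *Car4*, *Aldh1a1*, *Il18* and *Sct* differed more toward the jejunum in Venus-negative cells than in Venus-positive cells. *Aldh1a1* (above) was higher in the jejunum in Venus-negative cells (log2 fold change of -1.63) and higher in the ileum in Venus-positive cells (1.17), both past the threshold. With scaling by library size alone the Venus-negative call of *Aldh1a1* was lost (edgeR, log2 fold change of -1.09, adjusted p = 0.0593). Its interaction was -2.80 ± 0.41 SE (adjusted p = 0.0011). *Car4*, a membrane-bound carbonic anhydrase, was the other gene called in opposite directions, at 33.4, 30.7 and 120 CPM in the jejunum and 8.12, 16.1 and 13.6 CPM in the ileum of Venus-negative cells (log2 fold change of -2.28 ± 0.53 SE, adjusted p = 0.012). Its log2 fold change was 2.20 in Venus-positive cells, and its interaction -4.48 ± 0.75 SE (adjusted p = 0.0044). Jejunum replicate 3 held far more *Car4* than the other jejunum libraries, and the Venus-negative call was lost without it (edgeR, adjusted p = 0.280) or without ileum replicate 1. For *Il18* the interaction was -3.11 ± 0.50 SE (adjusted p = 0.0031), and for *Sct* it was -3.05 ± 0.62 SE (adjusted p = 0.021). The *Sct* interaction was lost without jejunum replicate 1, ileum replicate 1 or ileum replicate 2 (edgeR, adjusted p up to 0.0871).

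A further 4 of the 9 were higher in the ileum in both sorts and differed more in Venus-positive cells. *Slc13a1*, a sodium-sulfate cotransporter, had 3.64, 2.38 and 4.53 CPM in the jejunum and 11.4, 26.9 and 25.0 CPM in the ileum of Venus-negative cells (log2 fold change of 2.58 ± 0.39 SE, adjusted p = 6.6e-05) and a log2 fold change of 5.0 in Venus-positive cells. *Prss23*, a serine protease, had 11.4, 5.21 and 10.6 CPM in the jejunum and 31.7, 19.5 and 32.1 CPM in the ileum (log2 fold change of 1.62 ± 0.35 SE, adjusted p = 0.0060) and a log2 fold change of 4.05 in Venus-positive cells. *Slc6a14*, an amino acid carrier, had 0.152, 0.257 and 0.544 CPM in the jejunum and 1.73, 2.15 and 3.16 CPM in the ileum (log2 fold change of 2.80 ± 0.59 SE, adjusted p = 0.0047), against a log2 fold change of 7.07 in Venus-positive cells. The gene *ccdc198* had 1.06, 0.579 and 0.725 CPM in the jejunum and 4.49, 2.68 and 5.21 CPM in the ileum (log2 fold change of 2.38 ± 0.53 SE, adjusted p = 0.010), where Venus-positive jejunum had no count. The Venus-negative calls of *Prss23* and *ccdc198* were lost without jejunum replicate 2 (edgeR, adjusted p = 0.0633 and 0.0715), and that of *ccdc198* also without jejunum replicate 3. The interactions of *Slc13a1*, *Prss23* and *Slc6a14* were each lost without several single libraries, with adjusted p values of up to 0.123, 0.0810 and 0.344 (edgeR, without ileum replicate 1, jejunum replicate 1 and jejunum replicate 3).

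Some genes differed between the regions in Venus-positive cells but not by the test in Venus-negative cells. Among the 20 cholesterol genes, 13 were higher in the ileum and 3 in the jejunum in Venus-positive cells (list median 1.96), where 3.00% and 2.15% of all genes tested were called in these directions. In Venus-negative cells the counts were none and 2. The interaction, called for 0.266% of all genes, was called for *Fdft1* and *Sqle*, also without each of the 6 Venus-negative libraries in turn. That of *Srebf2* was called with all libraries and lost without any one of these 6 (edgeR, adjusted p up to 0.0871). Venus-positive libraries were not left out. *Sqle*, the epoxidase of cholesterol synthesis, had 12.0, 20.4 and 28.0 CPM in the jejunum and 14.2, 30.7 and 29.5 CPM in the ileum of Venus-negative cells (log2 fold change of 0.30 ± 0.38 SE, adjusted p = 0.88). Its log2 fold change was 3.31 in Venus-positive cells, and its interaction -3.01 ± 0.55 SE (adjusted p = 0.0078). *Sema3c* (-4.43 ± 0.63 SE, adjusted p = 0.0011) and *Aldh1a1* were among the 3 genes with the smallest interaction p values toward a lower ileum-to-jejunum ratio in Venus-negative cells. Those in the opposite direction belonged to *Aqp1* (2.60 ± 0.48 SE, adjusted p = 0.0085), *Itpr1* (2.63 ± 0.49 SE, adjusted p = 0.0086) and *Nek6* (2.09 ± 0.39 SE, adjusted p = 0.0086). *Sema3c*, a secreted guidance factor, had 9.33, 6.04 and 7.92 CPM in the jejunum and 14.6, 5.89 and 13.2 CPM in the ileum of Venus-negative cells (log2 fold change of 0.53 ± 0.40 SE, adjusted p = 0.75). *Aqp1*, a water channel, had 25.1, 20.8 and 34.2 CPM in the jejunum and 39.2, 26.5 and 51.2 CPM in the ileum (log2 fold change of 0.55 ± 0.33 SE, adjusted p = 0.64).

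**Figure D5:**
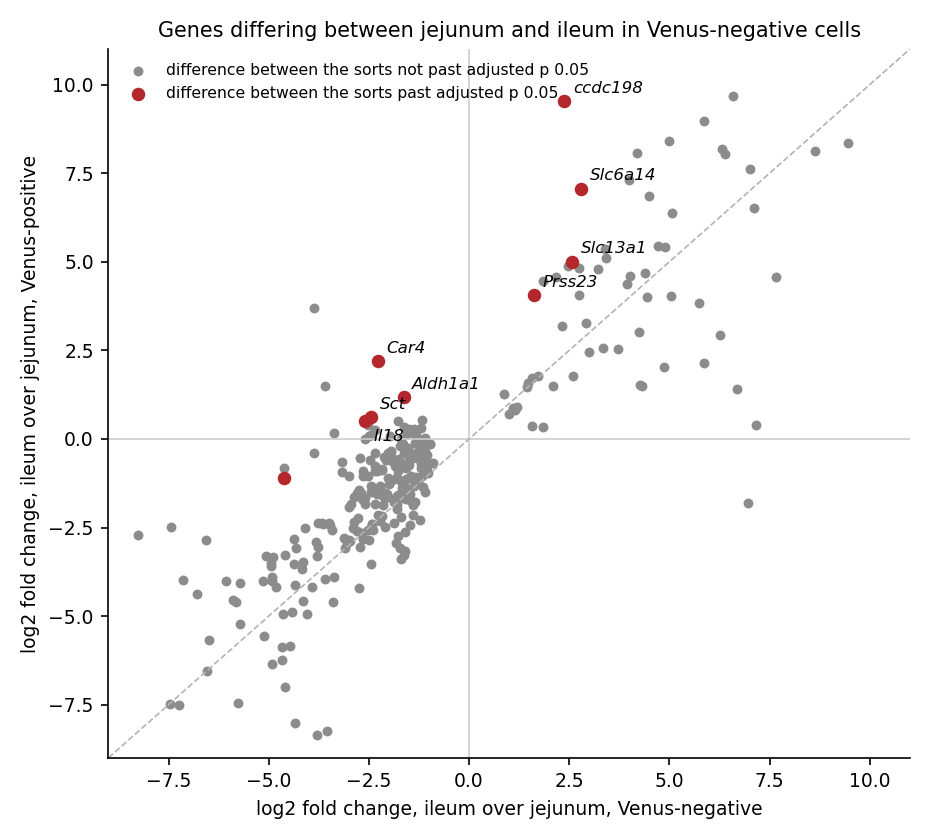
Each point is 1 of the 317 genes called in Venus-negative cells, with its log2 fold change (ileum over jejunum) in Venus-negative cells on the x axis and in Venus-positive cells on the y axis, and a dashed line of equality. Red points are the 9 genes whose difference between the sorts passed the interaction test, with names beside those described here. Of the 317 genes 294 have the same sign on both axes, given without the share over all genes tested.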

How the data were processed

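RNA was prepared from 10 ng per sample with a stranded total RNA kit and sequenced as single reads of 50 bases. Per the labels, the submitters' processing notes name STAR 2.5.1, CASAVA and GRCm38. The deposited values are raw read counts per gene for all 24 libraries, and the strand setting of the counting is not given in the sources used here. Reads that map to several gene copies were not counted, so near-identical copies are uncertain. Of 53465 genes, 53360 had a symbol in GENCODE M21.

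Genes with low counts were removed by filterByExpr (at least 10 counts in enough libraries and 15 in total), and the rest were scaled by TMM and fitted for all 8 groups of 24 libraries with edgeR 4.0.16 (quasi-likelihood test, R 4.3.3, limma 3.58.1), and the jejunum and ileum groups were contrasted. The common dispersion was 0.185. Standard errors are the log2 fold change divided by the square root of F. The interaction subtracted the Venus-positive from the Venus-negative contrast. The adjusted p threshold was 0.05 (Benjamini-Hochberg). The pipeline was tested on simulated data. Alternatives were DESeq2 1.42.0, RLE factors, library size, other filters, other libraries in the fit, protein-coding genes only and the i5 index as covariate. Each of the 6 Venus-negative libraries compared was also left out in turn, and no Venus-positive library was. The named genes were the 12 largest changes per direction among called protein-coding genes without overlap and with 10 counts in each library of the higher group, called list members with up to 4 uncalled ones, the 3 smallest interaction p values per direction, and *Guca2a* and *Guca2b*, of which some genes are not reported here. Members and lists were chosen with earlier results of these data known. Replicates were numbered in accession order. They differed by more than counting noise (chi-square per degree of freedom 25.4 to 140).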

Additional observations from a re-analysis of the deposited data

Results flagged for a closer look

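For 17 of the named genes, the difference between jejunum and ileum itself differed between Venus-negative and Venus-positive cells by the interaction term (edgeR's quasi-likelihood test, adjusted p under 0.05), and each value here is the Venus-negative minus the Venus-positive log2 fold change.
The genes called in Venus-negative cells were *Aldh1a1* (-2.80), *Il18* (-3.11), *Car4* (-4.48), *Sct* (-3.05), *ccdc198* (-7.15), *Prss23* (-2.44), *Slc13a1* (-2.42) and *Slc6a14* (-4.27). For *ccdc198* the Venus-positive jejunum had no count, so its fitted value is not a bound. *Car4* and *Aldh1a1* were called in opposite directions in the sorts, the Venus-negative call of *Aldh1a1* not with scaling by library size alone (edgeR, adjusted p = 0.0593).

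Genes of cholesterol synthesis and its control were *Fdft1* (-2.87), *Sqle* (-3.01) and *Srebf2* (-1.61). The remaining genes were *Sema3c* (-4.43), *S100g* (-5.50), *Slc1a1* (-2.89), *Aqp1* (2.60), *Itpr1* (2.63) and *Nek6* (2.09). The interaction of *Srebf2* lost its call without any one of the 6 Venus-negative libraries, and that of *Slc1a1* without jejunum replicate 3 or any of the ileum replicates.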

How the results depend on the processing

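All 104 called named genes kept their sign under every alternative run, and 56 stayed called under each alternative that tested them. DESeq2 ended the calls of *Ghrl* and *Pla2g12b*. Scaling by library size alone ended 32 of them, all higher in the jejunum (*Abcc2*, *Acsl5*, *Aldh1a1*, *Apob*, *Ccl25*, *Ces2c*, *Ces2e*, *Cpe*, *Dgat1*, *Dgat2*, *Hnf4g*, *Mogat2*, *Npc1l1*, *Pck1*, *Pla2g12b*, *Reg4*, *Scarb1*, *Sis*, *Slc26a3*, *Slc27a4*, *Slc2a5*, *Slc2a7*, *Slc36a1*, *Slc3a2*, *Slc43a2*, *Slc5a1*, *Slc5a11*, *Slc5a4b*, *Slc7a9*, *Soat2*, *Sult1b1* and *Ugt1a1*). Leaving out 1 library enlarged the fold change by over 1.5 times for 19 genes that stayed called (*Afp*, *Cck*, *Cd36*, *Cyp2c66*, *Fabp2*, *Fabp6*, *Ghrl*, *Hoxb3*, *Hoxb4*, *Hoxb7*, *Hoxb8*, *Lct*, *Pdk4*, *Saa1*, *Slc23a1*, *Slc2a2*, *Slc2a7*, *Slc6a14* and *Slc9a3*), at most for *Hoxb3*, to a log2 fold change of 8.98 without jejunum replicate 3, when the jejunum held no count and the fitted value is no bound. Library size alone gave 674 called genes, 559 higher in the ileum and 115 in the jejunum, and moved the median of all genes from -0.01 to 0.61. Then 17.1% of calls were higher in the jejunum against 80.8% with TMM. DESeq2 called 117 genes higher in the ileum and 128 interactions, and no filter on low counts gave 119 and 143. Requiring 10 counts in each of the 6 libraries left 183 genes (27 ileum, 156 jejunum) and 55 list members in place of 92. With the i5 index as covariate 478 genes were called (93 ileum, 385 jejunum) and 94 interactions. The index was not balanced between the regions. Index D502 was on jejunum replicate 3 and ileum replicates 2 and 3, and D501 on the other Venus-negative libraries compared. Leaving out each of the 6 libraries in turn gave 188 to 357 genes, 40 to 67 higher in the ileum, 139 to 290 higher in the jejunum, 24 to 51 interactions and 63 to 81 list members. The lowest total came without ileum replicate 1, the lowest ileum count without jejunum replicate 3. Causes were not tested. No paired analysis was run, because the labels give the libraries no replicate numbers and name no mouse. Some levels followed accession order in both regions. *Reg3g* was lowest in replicate 1 and highest in replicate 2 of each, and *Chga* was lowest in replicate 3 of each. At each replicate number *Mki67* and *Reg3g* were higher in the ileum and *Chga* and *Chgb* higher in the jejunum. A pairing by that order was not tested. Jejunum and ileum libraries, and Venus-negative and Venus-positive libraries, may come from the same mice, which the fits do not use. Depth limits genes near 3 counts per library, and each count not given for an alternative was within 1.5 times the main one.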

Other observations

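Gene groups outside the lists were formed from symbols after their values had been seen and are given as counts without a test of the group. Of 78 nuclear-encoded subunits of the respiratory chain and ATP synthase, which make most of a cell's ATP, 10 were higher in the jejunum (edgeR's quasi-likelihood test), against 1.70% of all genes tested. Of the 78, 77 had a negative log2 fold change, with a median of -0.82. Over all genes tested, 48.8% had a positive log2 fold change. *Cox7a1*, a cytochrome oxidase subunit, had 26.4, 16.5 and 23.2 CPM in the jejunum and 2.68, 3.74 and 3.77 CPM in the ileum (log2 fold change of -2.70 ± 0.43 SE, adjusted p = 1.5e-04), without overlap between the regions. The next were *Uqcrq* (log2 fold change of -1.36 ± 0.31 SE, adjusted p = 0.011), *Ndufb6* (log2 fold change of -1.25 ± 0.29 SE, adjusted p = 0.014) and *Atp5e* (log2 fold change of -1.26 ± 0.31 SE, adjusted p = 0.021), subunits of complex III, complex I and ATP synthase. With scaling by library size alone 1 of the 78 was called, 64 had a negative log2 fold change and the median was -0.26, against 0.61 for all genes. Without ileum replicate 1 also 1 was called. The 7 mitochondrially encoded proteins tested had a median of -0.16, while the share of counts on mitochondrial genes ranged from 61.2 to 78.8%. The median of 88 ribosomal proteins was -0.42 and turned to 0.19 with scaling by library size alone.

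Among 259 solute carriers, 21 were higher in the jejunum and 7 in the ileum, with a median of -0.07, against 1.70% and 0.405% of all genes tested. Outside the lists, *Slc28a1*, a nucleoside transporter, had 3.41, 0.964 and 1.63 CPM in the jejunum and 0.0412, 0.106 and 0.0554 CPM in the ileum (log2 fold change of -4.68 ± 0.84 SE, adjusted p = 8.6e-04). *Slc25a45*, a mitochondrial carrier, had 10.7, 7.65 and 10.9 CPM in the jejunum and 0.618, 1.2 and 0.720 CPM in the ileum (log2 fold change of -3.50 ± 0.37 SE, adjusted p = 1.6e-07). *Slc25a48*, another mitochondrial carrier, was higher in the ileum, at 0.0758, 0.257 and 0 CPM in the jejunum and 2.35, 5.78 and 3.16 CPM in the ileum (log2 fold change of 4.99 ± 0.81 SE, adjusted p = 2.1e-04). Each of the 3 differed without overlap between the groups. Of 12 class I MHC genes of the H2-Q, H2-T and H2-M regions, *H2-Q1* (log2 fold change of -1.87 ± 0.45 SE, adjusted p = 0.016) and *H2-Q2* (log2 fold change of -2.15 ± 0.34 SE, adjusted p = 1.4e-04) were higher in the jejunum, and reads shared with their near-identical copies were not counted.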
